A study of Mus musculus with 108 samples.

Results

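The stable poised enhancers of the mouse liver are the 200 bp bins of chromosomes 1 to 19 that carried chromatin state 5, named the poised enhancer by the study, in each of the 3 groups whose segmentations were analysed. The rule was met by 105476 of 12313718 autosomal bins, which is 0.857% of them. Merging adjacent bins gave 13747 stretches that together cover 21.1 Mb. The bins were thus chosen by the state labels themselves, so that the number of bins, the shares that stayed in state 5 and the lengths of the stretches are descriptions and carry no test.

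The livers of female C57BL/6 mice were fixed in formalin and embedded in paraffin, and ChIP-seq was made on their chromatin for the histone marks H3K4me3, H3K27me3, H3K27ac and H3K4me1. The SD 3m group was fed a standard diet and was 3 months old, with 30 libraries, of which 7 each were for H3K4me3 and H3K27me3 and 8 each for H3K27ac and H3K4me1. The SD 12m group was fed the same diet to 12 months, with 29 libraries (8, 8, 7 and 6, with the marks in that order). The CR 12m group was also 12 months old and received 30% fewer calories, with 29 libraries (5, 6, 9 and 9). For each mark, reads were pooled over the libraries of a group before ChromHMM, a hidden Markov model of mark combinations, assigned 1 of 8 states to every bin. Each group therefore has 1 segmentation and no replicate, no value could be set against the spread between mice, and no test was made. The deposited value is a state label, and the read depth behind it is unknown. Whole liver holds hepatocytes, endothelial cells, stellate cells, macrophages and other cells, so that a mark in few cells and a weak mark in many cells cannot be told apart.

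Enhancers are DNA elements that raise the transcription of genes, often over a distance and often from inside an intron. Nucleosomes at enhancers carry H3K4me1, and those of enhancers in use carry H3K27ac as well. An enhancer with H3K4me1 and little H3K27ac is called primed or poised, since such elements can be activated later by a signal or during differentiation. In the liver, factors such as FOXA and HNF4A open enhancers early in development. The label was not checked, because the signal of single marks was not analysed here. The states beside the stretches come from the same segmentations as the label and are given as a description. State 6, the H3K27me3 state of Polycomb repression, lay directly beside few of these stretches (values below), and state 3, an active enhancer state, lay beside most.

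Sequences are shown from the longest stretches, which hold the longest unbroken stable state. For each of the 5 longest stretches, the 200 bp bin with the most matches to the 10 liver and signal-dependent motifs searched is given, as the mm10 reference has it, 5′ to 3′. Capitals mark the matches on either strand, and overlapping matches run together. All 5 bins lie in introns of the gene named.

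Glis3 intron, chr19:28434801-28435000, plus strand: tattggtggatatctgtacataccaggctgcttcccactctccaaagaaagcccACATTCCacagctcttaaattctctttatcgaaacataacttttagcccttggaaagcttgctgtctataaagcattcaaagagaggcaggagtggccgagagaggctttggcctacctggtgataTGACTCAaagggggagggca
Rbms3 intron, chr9:117195601-117195800, plus strand: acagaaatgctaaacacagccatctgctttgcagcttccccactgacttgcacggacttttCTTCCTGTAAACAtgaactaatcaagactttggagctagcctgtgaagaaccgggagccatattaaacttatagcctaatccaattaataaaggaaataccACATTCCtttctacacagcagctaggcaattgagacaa
Chchd3 intron, chr6:32970801-32971000, plus strand: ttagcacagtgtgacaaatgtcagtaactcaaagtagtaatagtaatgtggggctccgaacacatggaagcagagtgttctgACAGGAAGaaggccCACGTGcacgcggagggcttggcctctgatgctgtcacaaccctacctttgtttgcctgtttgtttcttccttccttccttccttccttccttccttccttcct
Kdr intron, chr5:75936401-75936600, plus strand: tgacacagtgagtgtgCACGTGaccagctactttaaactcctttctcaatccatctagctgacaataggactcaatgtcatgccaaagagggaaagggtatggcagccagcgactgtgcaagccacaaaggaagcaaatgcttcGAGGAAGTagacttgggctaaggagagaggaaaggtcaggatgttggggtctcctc
Cdyl intron, chr13:35756401-35756600, plus strand: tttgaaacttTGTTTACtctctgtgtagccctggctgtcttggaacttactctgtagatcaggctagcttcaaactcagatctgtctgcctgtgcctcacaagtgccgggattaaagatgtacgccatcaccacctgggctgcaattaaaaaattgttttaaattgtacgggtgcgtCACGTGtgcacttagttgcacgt

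In the Glis3 bin the capitals mark a TEAD motif (ACATTCC) at position 55 and an AP-1 motif (TGACTCA) at position 181, counted from 1 at the first base printed. The Rbms3 bin holds an ETS match at position 62 that overlaps a FOXA match at position 68, and a TEAD match at position 163. An ETS and an E-box (CACGTG) match stand at positions 83 and 97 of the Chchd3 bin, which ends in a run of short repeats. The Kdr bin has an E-box match at position 17 and a PU.1 match at position 145, and the Cdyl bin a FOXA match at position 11 and an E-box match at position 178. The bins were chosen for holding matches, so that these matches say nothing of how common a motif is in the set.

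State 5 was less common at 12 months, and the bins that kept it were a minority of those that had it at 3 months. In SD 3m it covered 5.61% of autosomal bins (691200 bins). The coverage was 2.75% (338897 bins) for SD 12m and 2.47% (304247 bins) for CR 12m. The stable bins were 15.3% of the state 5 bins of SD 3m, 31.1% of those of SD 12m and 34.7% of those of CR 12m. Of the 58677 unbroken runs of state 5 in SD 3m, 11590 (19.8%) held at least 1 stable bin and 3498 (5.96%) were kept whole. These shares follow from the rule and from how common state 5 was in each segmentation.

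Bins just outside the rule were most often in an active enhancer state in the group where they missed it. State 5 in SD 3m and SD 12m but not in CR 12m was found in 103851 bins, of which 48.1% were in state 3 and 30.1% in state 4 in CR 12m. A further 68464 bins missed the rule in SD 12m alone, with 57.3% in state 4 and 19.7% in state 3 there. In SD 3m alone 44195 bins missed it, 54.1% of them in state 3 and 23.3% in the quiescent state 8. Between 2.37% and 3.29% of these bins were in the Polycomb state 6 in the group that missed the rule.

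Most stretches were short, and a few were very long. The median length was 800 bp, with quartiles of 400 and 1800 bp, and 11.1% of the stretches consisted of a single bin. The 763 stretches of 5 kb or more were 5.55% of the stretches and held 30.0% of the stable bins, and 160 stretches reached 10 kb. For comparison, 3 other sets were formed from the same labels. Bins in state 5 in SD 3m that were in state 3 or 4 in both 12-month groups are called turned active here. Those in state 8 in both are called lost to quiescence. Bins that were not in state 5 in SD 3m but were in both 12-month groups are called arisen by 12 months. The study labels state 4 an active enhancer state but also counts states 4 and 5 as weak and poised signatures. Of the 265994 bins turned active, 118104 were in state 4 in both 12-month groups and 96754 in state 3 in both. The longest stretch measured 42800 bp in the stable set, against 19800 bp among bins turned active, 20200 bp among bins lost to quiescence and 17600 bp among bins arisen by 12 months. Median lengths were 800, 1200 and 600 bp in these 3 sets. Stretches of 5 kb or more were 3.79%, 7.30% and 1.11% of their stretches and held 20.3%, 29.7% and 7.89% of their bins. Stretches of 5 kb or more were thus not particular to the stable set, although its longest was the longest of all.

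The share of bins that were stable was highest in the longest runs and farthest from their edges, although the stable bins themselves lay at all depths. In SD 3m runs of 200 to 400 bp, 12.3% of the bins were stable. The share was 10.9% in runs of 600 to 1000 bp and of 1200 to 2400 bp, 13.4% in runs of 2600 to 5000 bp, 16.1% from 5200 to 10000 bp and 22.3% in runs of 10200 bp or longer. Of those longest runs, 53.3% held a stable bin. Counted from the edge of the SD 3m run, 10.9% of the outermost bins were stable, 15.5% of those 6 to 10 bins inside and 25.4% of those 26 or more bins inside, which were 13632 of the 105476 stable bins.

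Active enhancer state 3 was the most frequent state at the ends of the state 5 runs. The unbroken state 5 run that held a stretch had median lengths of 2800, 3000 and 2400 bp in SD 3m, SD 12m and CR 12m. State 3 or 4 lay directly beside that run, on at least 1 side, for 85.1% of the stretches at 3 months (Wilson 95% interval 84.5 to 85.7), for 82.5% under SD 12m (81.8 to 83.1) and for 83.0% under CR 12m (82.3 to 83.6). These intervals count stretches only and do not describe the spread between mice. The shares beside the runs were not computed for other state 5 runs. They are therefore not shown to be particular to the stable set. State 3 stood on both sides for 57.4%, 50.4% and 52.9% of the stretches in the same order, and quiescent state 8 on both sides for 10.4%, 14.99% and 14.96%. Few stretches bordered the other states. State 6 was beside 4.93%, 2.52% and 2.75% of them, and the TSS states 1 and 2 beside 3.78%, 1.51% and 0.786%.

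The ends of the runs differed between the groups around a shared core. Only 752 of the 13747 stretches (5.47%) lay in a run with equal ends in all 3 groups, while 5839 (42.5%) had an active enhancer state on both sides in all 3. Another 945 (6.87%) had no active enhancer state beside them in any group. The SD 3m runs that held a stable bin also had 117852 bins that were not stable. Under SD 12m, state 5 was kept by 33.6% of these, and states 3, 4 and 8 took 21.9%, 19.2% and 22.1%. The respective shares in CR 12m were 24.8%, 33.7%, 11.7% and 26.1%.

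Runs at 12 months also included bins from other states. The SD 12m runs with a stable bin took in 51735 bins that had not been in state 5 in SD 3m, 61.2% of which had been in state 3 and 22.4% in state 8. In CR 12m there were 54588 such bins, 49.3% from state 3 and 31.8% from state 8. State 3 was thus the most frequent origin in both diets.

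Within 10 kb of the stretches, outside the stable bins themselves, states 3 and 4 together took 43.5%, 51.3% and 53.2% of the bins in SD 3m, SD 12m and CR 12m. Over all autosomal bins they took 16.6%, 20.4% and 20.9%. Around bins turned active the shares were higher, 62.0%, 71.5% and 74.0%, and around bins lost to quiescence lower, 10.04%, 15.4% and 11.4%. The stable stretches thus lay between those sets, and above the whole of the autosomes, in this measure. The same was true around bins arisen by 12 months, with 37.9%, 40.8% and 43.4%.

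**Figure D1:**
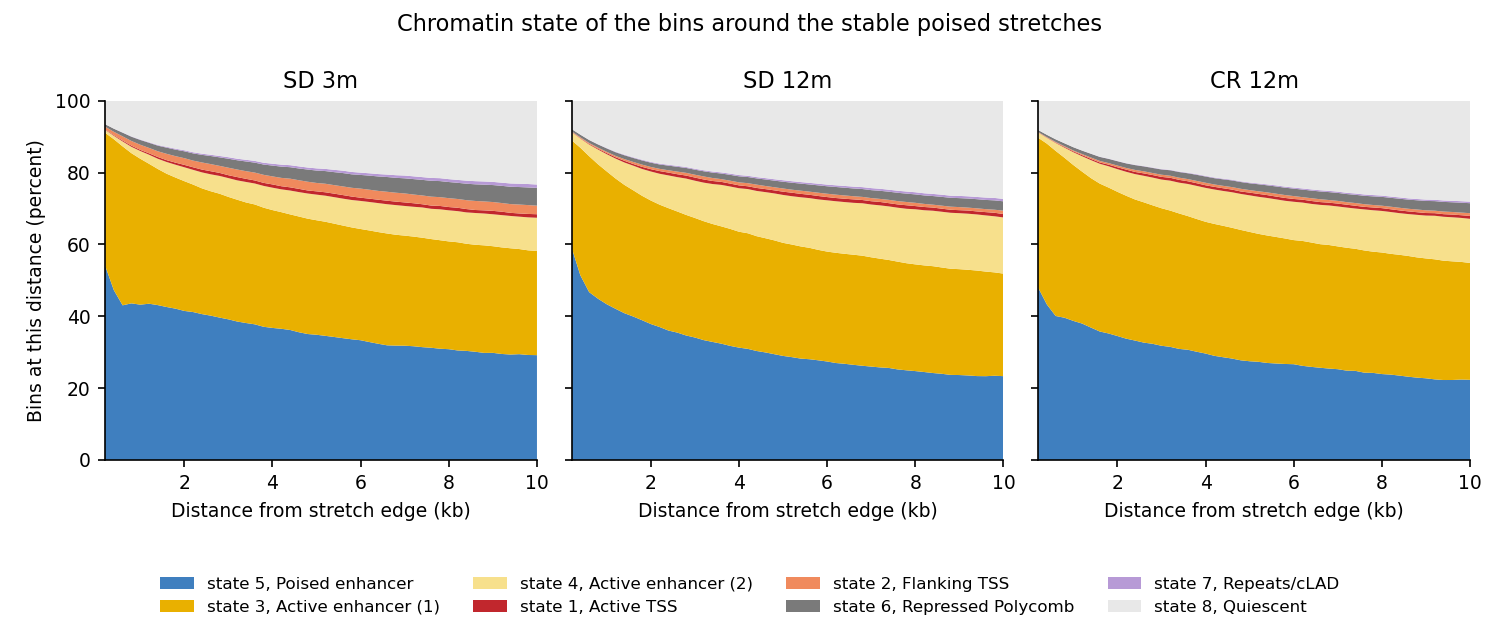
Chromatin state of the bins at each distance from the edge of a stable poised stretch, from 0.2 to 10 kb, as a percent of the bins at that distance on either side of the 13747 stretches (y axis), in SD 3m, SD 12m and CR 12m. Directly beside a stretch 54.2%, 59.2% and 48.0% of the bins were in state 5, and at 10 kb 29.2%, 23.3% and 22.3%. Bins near several stretches count for each of them.

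The set was present on every autosome. It covered between 0.605% of the bins on chromosome 8 and 1.29% on chromosome 19, with a median of 0.830%. The share of SD 3m state 5 that stayed in state 5 ranged from 9.20% on chromosome 11 to 20.2% on chromosome 6. On each of the 19 autosomes more of the SD 3m state 5 turned active than stayed, with shares turned active from 29.7% on chromosome 1 to 47.8% on chromosome 11. The share lost to quiescence lay between 6.98% and 14.1%.

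**Figure D2:**
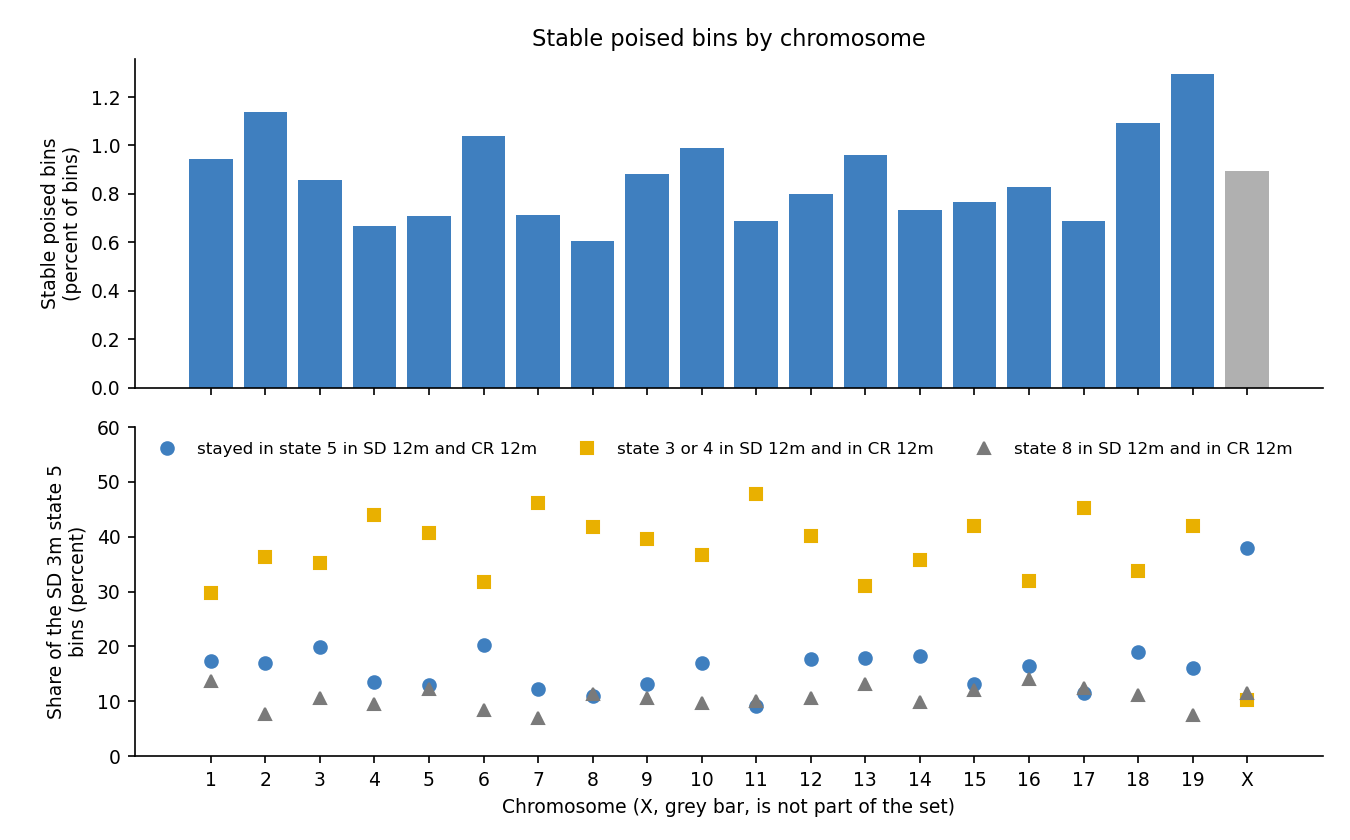
Stable poised bins as a percent of all bins (upper panel, bars) and the share of the SD 3m state 5 bins that stayed in state 5, turned active or were lost to quiescence (lower panel, points), by chromosome. The share that stayed was lowest on chromosome 11 (9.20%) and highest among autosomes on chromosome 6 (20.2%), and chromosome X, which the rule leaves out, stood at 38.0%.

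Along chromosomes the stretches came in groups. The median gap between neighbouring stretches was 12.0 kb, and 47.9% of the gaps were 10 kb or shorter. Joined over such gaps they formed 7167 clusters, of which 4510 were a single stretch and 105 held 10 or more stretches. Clusters of 2 or more stretches held 75.3% of the stable bins. Of the 2454 whole 1 Mb blocks, 693 (28.2%) held no stable bin, whereas the 245 blocks with the most held 50.4% of them. The cluster with the most stable bins lay in Chchd3, with 10 stretches and 111.2 kb of stable bins in 135.0 kb (chr6:32918201-33053200), and the next in Magi1, with 22 stretches and 91.0 kb in 132.2 kb (chr6:93796601-93928800).

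Stable poised bins lay mostly inside genes and rarely within 2 kb of a TSS. Of the stable bins 85.7% had their midpoint in the span of a gene's longest curated RefSeq transcript, against 40.4% of all autosomal bins, 60.2% of the bins turned active and 64.1% of those lost to quiescence. The stable set was higher than each of these on 19 of 19 autosomes. Introns took 83.7% of the stable bins, coding exons 0.885%, UTR exons 0.821% and sequence between genes 14.3%. Within 2 kb of a TSS lay 2.11% of the stable bins, against 3.67% of all bins and 7.05% of the bins turned active, and the stable share was the lower on 19 of 19 autosomes in both comparisons. The median distance to the nearest TSS was 37.6 kb for stable bins, 16.7 kb for bins turned active, 37.9 kb for bins lost to quiescence and 58.1 kb for all bins, so that stable bins were nearer to a TSS than bins of the autosomes as a whole. Bins arisen by 12 months resembled the stable bins, with 84.5% in gene spans and 1.97% within 2 kb of a TSS.

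Base composition separated the stable bins from those that turned active. Their GC content was 42.7%, against 47.8% for bins turned active, 43.5% for bins lost to quiescence, 39.2% for bins arisen by 12 months and 41.9% for all bins. They held 8.84 CpG dinucleotides per kb, against 12.7 for bins turned active, and both values were lower than those of bins turned active on 19 of 19 autosomes. Repeat-masked sequence made up 28.8% of the stable bins, below the 33.5% of all bins on 19 of 19 autosomes. It was 25.1% in bins turned active and 22.5% in bins lost to quiescence, which the stable set exceeded on 19 of 19 autosomes each.

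**Figure D3:**
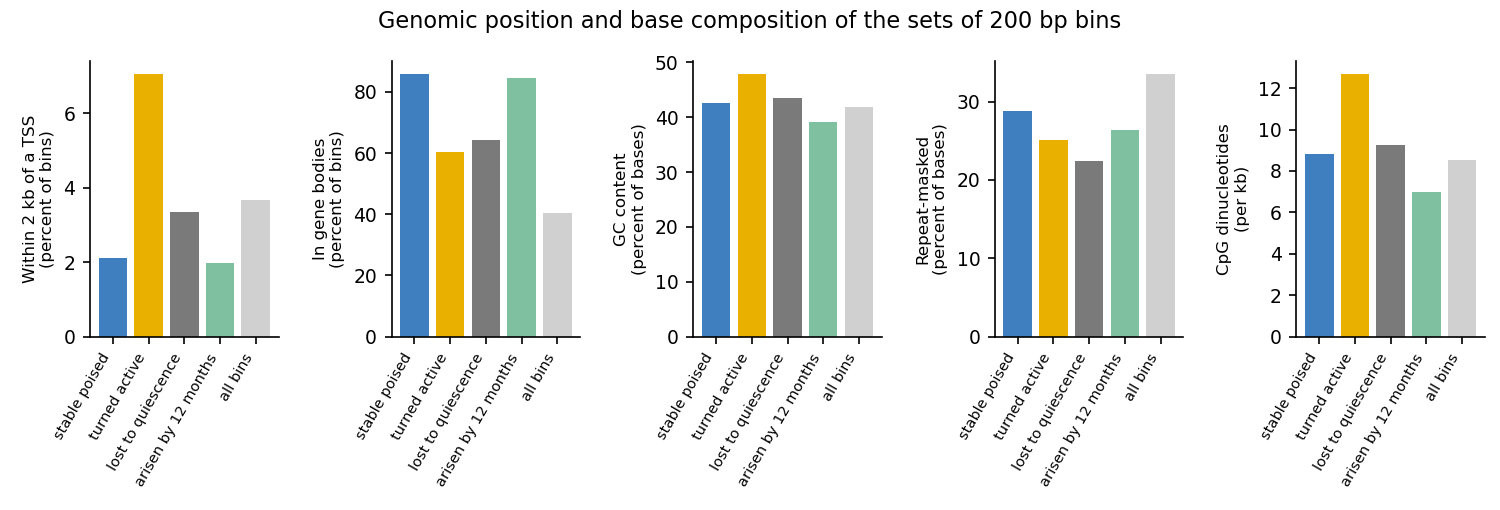
Position and base composition of the stable poised bins, of the comparison sets and of all autosomal bins, as percent of bins within 2 kb of a TSS or in gene bodies, percent of bases that are G or C or repeat-masked, and CpG dinucleotides per kb. Stable poised bins were in gene bodies more often (85.7%) than all bins (40.4%) and had less GC (42.7%) than bins turned active (47.8%).

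The motifs were searched as exact letters on both strands, and a match is a description of the sequence and not of a bound factor. FOXA (TGTTTAC), the motif of the factors that open liver enhancers, was found in 3.20% of the stable bins, against 2.98% of all assembled autosomal bins and 2.31% of the bins turned active, and the share was higher than in bins turned active on 19 of 19 autosomes. HNF1 (GTTAATNAT) was in 0.730% of the stable bins, 0.703% of all bins and 0.3602% of the bins turned active. HNF4A (CAAAGTCCA) stood at 0.284%, 0.257% and 0.273% in the same order, and CEBP (TTGCGCAA) at 0.0237%, 0.0161% and 0.0195%, where CEBP was found in only 25 stable bins. The sets that were lost or arose had shares as high or higher for some of these motifs. FOXA was in 3.66% of the bins arisen by 12 months and the stable share was above it on 2 of 19 autosomes, HNF1 was in 1.10% of them and the stable share was above it on none of 19, and HNF4A was in 0.305% of the bins lost to quiescence. The stable share of HNF1 was above that of all bins on 9 of 19 autosomes.

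The AP-1, ETS, PU.1 and E-box motifs were in fewer stable bins than bins turned active or lost to quiescence. AP-1 (TGACTCA), bound by FOS and JUN, was in 3.19% of stable bins, 3.69% of bins turned active and 3.85% of bins lost to quiescence, with 3.14% of all bins. The stable share was above that of bins turned active on 1 of 19 autosomes and above that of bins lost to quiescence on none of 19. ETS (ACAGGAAG) was in 1.80%, 2.28%, 2.33% and 1.79% in the same order, and it was not higher in the stable bins than in the first of these comparison sets on any autosome. PU.1 (GAGGAAGT), which can overlap an ETS site, was in 1.13%, 1.43%, 1.49% and 1.20%, and the E-box (CACGTG) in 2.06%, 2.98%, 2.47% and 1.99%. Bins arisen by 12 months were near the stable bins for AP-1 (3.18%), ETS (1.79%) and PU.1 (1.12%). For the E-box they were lower (1.72%). TEAD (ACATTCC), the motif of the partners of YAP, differed less, with 2.82% of stable bins, 2.76% of bins turned active and 2.71% of all bins. In bins lost to quiescence it was higher, at 3.04%. CREB (TGACGTCA) was in 0.111% of all bins. The sets also differ in GC content as given above, and its part in these shares was not tested.

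The longest stretches all lay entirely within genes. The longest covered 42.8 kb of an intron of Glis3 (chr19:28419801-28462600), which encodes a zinc finger transcription factor. The run that held it measured 59.8, 48.2 and 46.4 kb in SD 3m, SD 12m and CR 12m. The next, 37.8 kb in Rbms3 (chr9:117194001-117231800), a gene for an RNA-binding protein, sat in runs of 41.0, 38.0 and 43.6 kb. Neither stretch held any exon base of the longest curated transcript, and in Rbms3 the run was shortest in SD 12m.

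The stretch in Chchd3 (35.4 kb, chr6:32963801-32999200), whose product shapes the cristae of mitochondria, was the whole of its run in SD 3m, and that run measured 113.0 kb in SD 12m and 76.2 kb in CR 12m. The same direction was seen for the 23.4 kb stretch of Psd3 (chr8:67816601-67840000), with runs of 23.8, 58.6 and 67.6 kb, and for the 21.0 kb stretch of Pou2f1 (chr1:165932801-165953800), which encodes the transcription factor OCT1, with runs of 21.0, 37.2 and 44.6 kb. In Plekhg1 (21.2 kb, chr10:3749201-3770400) the run was instead longest at 3 months, with 55.2, 47.6 and 27.4 kb. In Chchd3 and Pou2f1 the stretch thus equalled the SD 3m run, and the runs at 12 months reached beyond it. By the rule a stretch is never longer than a run that holds it. Where it equals the SD 3m run, the runs at 12 months can therefore not be shorter.

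Of the other stretches among the 12 longest, 1 lay in Cdyl (33.4 kb, chr13:35746201-35779600), the gene of a chromodomain corepressor, 2 in Magi1 (26.8 and 23.2 kb), which encodes a scaffold of cell junctions, 1 in Gucy1a1 (23.4 kb, chr3:82112001-82135400), the alpha subunit of the nitric oxide receptor, and 1 in Etl4 (22 kb, chr2:20627001-20649000). The Cdyl stretch was the whole run in CR 12m (33.4 kb) and nearly so in SD 3m and SD 12m (37.0 and 38.2 kb). State 3 bordered it on at least 1 side in each group.

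Kdr, which encodes VEGF receptor 2 of endothelial cells, had its gene body in the poised state rather than an intron alone. Its 34.8 kb stretch (chr5:75933601-75968400, gene on the minus strand) included 4276 bp of exons. Of the 228 bins of the transcript, which has 30 exons, 90.8% were in state 5, 93.4% and 77.6% in SD 3m, SD 12m and CR 12m, and 76.3% were stable. State 4 was at 0.0% of these bins in SD 3m and SD 12m and at 14.9% in CR 12m. The TSS itself was in state 7 at 3 months, in state 5 under SD 12m and in state 4 under CR 12m. The label of the bin at the TSS was thus different in each group. From 1.555 to 2.955 kb downstream the bins were in the TSS state 1 in all 3 groups. The exception was the bin at 2.555 kb, in state 2 in SD 3m.

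**Figure D4:**
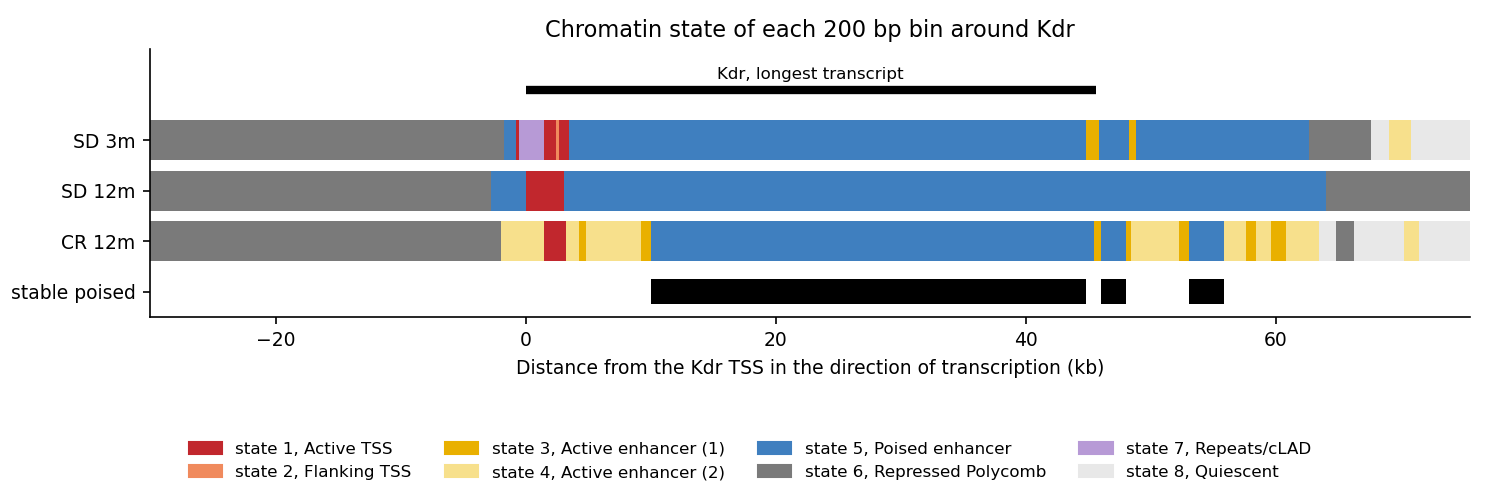
Chromatin state of each 200 bp bin in SD 3m, SD 12m and CR 12m by distance in kb from the TSS of Kdr, positive in the direction of transcription, with the stable poised bins in black and the 45.6 kb of the transcript above. In all 3 groups the gene body was mostly in state 5, and in CR 12m 14.9% of the bins of the transcript were in state 4.

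Of 24963 autosomal genes, 4792 had a stable bin in their transcript span or within 10 kb of it, which is 19.2%. This share depended on length. It was 8.12% for genes with a span under 10 kb, 14.1% from 10 to 30 kb, 32.8% from 30 to 100 kb and 55.6% from 100 to 300 kb. The median span was 45.8 kb for genes with a stable bin and 13.6 kb for all genes. The stable state was rarely at a gene's start, and 98 genes (0.393%) had their TSS in a stable bin. In 594 genes at least 10% of the extended span was stable, and in 86 at least 25%.

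The genes with the most stable bins were very long and had varied functions. Magi1 had 882 stable bins (176.4 kb, 28.1% of its extended span), with 40.2%, 35.5% and 39.8% of the span in state 5 in SD 3m, SD 12m and CR 12m. Dpyd, the enzyme that starts pyrimidine breakdown, had 783 (17.6%), and here state 5 took more of the span at 12 months, with 24.8%, 45.7% and 43.5%. Immp2l, a subunit of a mitochondrial inner membrane peptidase, had 529 (11.1%) and state 5 shares of 13.3%, 26.7% and 28.1%. In both genes the 12-month groups lay above SD 3m.

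The opposite order was seen in Glis3 and Rbms3. Glis3 had 501 stable bins, and state 5 took 61.4%, 33.6% and 35.2% of its span in SD 3m, SD 12m and CR 12m, while its active enhancer states took 8.70%, 41.7% and 32.2%. In Rbms3, with 721 stable bins, the state 5 shares were 36.3%, 21.3% and 16.9%, and the active shares only 4.25%, 4.57% and 5.90%. In Rbms3 the active enhancer states thus stayed under 6% of the span in each group. The receptor tyrosine phosphatases appeared 3 times, as Ptprg (685 stable bins), Ptprd (624) and Ptprk (497). The remaining genes of the 12 with the most were Chchd3 (667), Plekhg1 (472), Pid1 (400), an adaptor protein, and Bicc1 (398), an RNA-binding protein.

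Among genes whose extended span has at least 250 bins, the highest percent of stable bins was found in Kdr (59.9%). It was followed by Chchd3 (46.3%) and Lhx2 (46.2%), a LIM homeobox transcription factor of hepatic stellate cells. Lhx2 had 117 stable bins, its TSS was stable, and state 5 took 70.4%, 51.8% and 80.2% of its extended span in SD 3m, SD 12m and CR 12m with active enhancer states at 0.0% in all 3. Gucy1a1 (44.0%), Gprin3 (43.6%), Rab10 (41.9%), a small GTPase of vesicle transport, Arhgap31 (41.3%), Zfp644 (40.8%), Prickle1 (40.3%), a planar cell polarity protein, and Zcchc7 (40.3%) completed the 10. The TSS was in state 1 in all 3 groups in Rab10, Zfp644 and Zcchc7, whereas the Gucy1a1 TSS was in state 5, 8 and 5.

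The 15 gene lists were read against the 19.2% of all autosomal genes with a stable bin and against gene length. Endothelial genes had the highest pooled share. A stable bin was within 10 kb of 9 of 20, and stable bins made up 8.30% of their pooled extended spans, against 1.37% for all autosomal genes. Without Kdr, which held 197 of the 714 stable bins of the list, the pooled share was 6.25%. Their median span was 43.0 kb. Among all autosomal genes the pooled share was 1.48% for spans of 30 to 100 kb and 2.46% for 100 to 300 kb.

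The endothelial genes with the most stable bins after Kdr were the ETS transcription factors Fli1 (144 bins, 20.7% of its extended span) and Erg (120 bins, 9.69%). The state 5 share of Fli1 was 29.8%, 29.6% and 24.96% in SD 3m, SD 12m and CR 12m, and that of Erg 36.3%, 17.4% and 13.2%. The other 6 genes of the 9 were Flt1 (83), Ptprb (62), Stab2 (48), Tek (31), Flt4 (27) and Eng (2), all of them receptors. In Stab2, a scavenger receptor of sinusoidal endothelium, state 5 took 27.2%, 29.6% and 5.14% of the span in the same order, and the active states reached 83.7% in CR 12m. The 48 stable bins of Stab2 were thus all of its bins in state 5 in CR 12m. Lyve1, Stab1 and Clec4g, which also mark sinusoidal endothelium, had none.

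Stellate and mesenchymal genes had a stable bin in 7 of 18, with a pooled share of 2.83%, or 1.06% without Lhx2. After Lhx2 came Pdgfra (19 bins, TSS in a stable bin), a receptor of the growth factor PDGF, and Rgs5 (17 bins), a marker of pericytes. Kupffer cell and macrophage genes had none in 17. Their pooled state 5 share was 11.6%, 3.29% and 0.457% in SD 3m, SD 12m and CR 12m. The median span of the macrophage list was 11.6 kb, against 13.6 kb for all autosomal genes. Its gene Adgre1, with a span of 124.8 kb, had no stable bin either. Lymphocyte genes had a stable bin in 5 of 18, led by Ptprc (39 bins), the CD45 phosphatase, Ikzf3 (14) and Tcf7 (10), and cholangiocyte genes in 2 of 11, Prom1 (12) and Krt19 (3).

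For genes of hepatocytes the share with a stable bin was set against the 19.2% of all genes and against gene length. Among hepatocyte transcription factors it was 4 of 15 (26.7%), and Onecut2 held 66 of the 81 bins. Its state 5 share was 48.0%, 38.5% and 26.8% in SD 3m, SD 12m and CR 12m. Hnf4a had 11 stable bins, and Onecut1 and Prox1 had 2 each. Of the genes for plasma proteins and related hepatocyte products it was 4 of 19 (21.1%), with 76 bins in Apob, the structural protein of VLDL, 16 in Cps1, the entry enzyme of the urea cycle, and 7 in Apoh, and their pooled share was 2.75%, or 0.825% without Apob. In Apob state 5 took 46.1%, 55.9% and 28.3% of the span in SD 3m, SD 12m and CR 12m. The active states took 64.6% in CR 12m. The median span was 27.7 kb in the list of transcription factors and 10.9 kb in that of plasma proteins. Of all autosomal genes with a span of 10 to 30 kb, 14.1% had a stable bin, with a pooled share of 0.583%. Whether the 2 lists differ from genes of like length was not tested.

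Signalling genes had a stable bin more often than the 19.2% of all genes, and they are long. Of the Wnt and Notch genes 17 of 24 had one (median span 51.6 kb), of the TGF-beta and Smad genes 12 of 22 (65.1 kb) and of the Hippo and YAP genes 8 of 18 (53.8 kb). Pooled shares were lower than in endothelial genes, at 2.66%, 3.02% and 3.10%. Of all autosomal genes with a span of 30 to 100 kb, 32.8% had a stable bin, with a pooled share of 1.48%. From 100 to 300 kb these values were 55.6% and 2.46%. Whether the lists exceed genes of like length was not tested. Counts ranged from 0 to 121 stable bins a gene in these lists.

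Axin2, a Wnt target that limits the pathway, had 65 stable bins (25.7% of its extended span), and its state 5 share was 36.0%, 33.2% and 26.5% in SD 3m, SD 12m and CR 12m. Tcf7l2, the nuclear effector of Wnt, had 52 and Rbpj, that of Notch, 35. In the TGF-beta list the ligands Tgfb1 and Tgfb2 had 2 and 6 stable bins, and Tgfb3 had none. The receptors Tgfbr3, Bmpr2, Tgfbr2 and Tgfbr1 had 83, 50, 29 and 19, but Bmpr1a and Acvr1 only 4 and 2. Among the effectors Smad2 had 49, Smad4 15 and Smad5 8, and Smad1, Smad3 and Smad9 had none. The inhibitors Smad6 and Smad7 had none either. In the Hippo list the kinase Stk3 led with 121 bins, followed by Wwtr1 with 104, which encodes the coactivator TAZ, and the Yap1 gene itself had 4.

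The remaining lists had pooled shares below the 1.37% of all autosomal genes. Fetal liver genes had a stable bin in 3 of 11 (27.3%), namely Igf2bp3 (14), Igf2bp2 (11) and Hmga2 (2), with a pooled share of 0.653%. Their median span was 40.9 kb, and of all autosomal genes from 30 to 100 kb 32.8% had a stable bin. Skeletal muscle genes (median span 7.70 kb) had one in 2 of 12 (16.7%), with a pooled share of 0.992%. The 2 are Myh1 and Myh4, which are neighbours and share their 9 bins within 10 kb. Jun was the only 1 of 18 immediate early genes, with 2 bins, and Sdha the only 1 of 13 housekeeping genes, also with 2. The immediate early and housekeeping lists lay at 5.56% and 7.69%, below the 19.2% of all genes, and their median spans were 5.18 and 14.04 kb. Of all autosomal genes under 10 kb 8.12% had a stable bin, and of those from 10 to 30 kb 14.1%. Whether these lists differ from genes of like length was not tested.

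**Figure D5:**
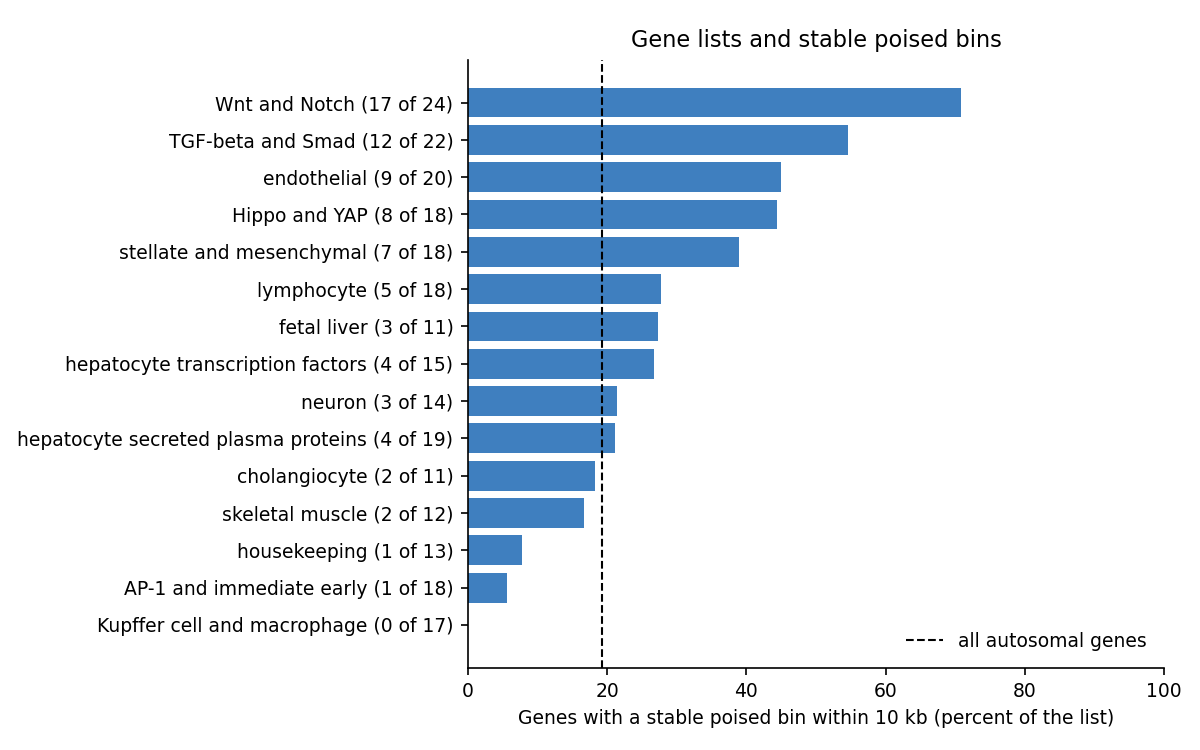
Percent of the autosomal genes of each list that have a stable poised bin in the transcript span or within 10 kb (bars), with the counts beside the names and the 19.2% of all autosomal genes as a dashed line. The Wnt and Notch list stood highest (17 of 24) and the Kupffer cell and macrophage list lowest (0 of 17). Lists differ in gene length, which is not corrected here.

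Of 4 control genes, 3 had no stable bin. Most autosomal genes had none either, since 19.2% of them had one. The 3 genes are also short, with spans of 15.7 kb (Alb), 1.84 kb (Apoa1) and 4.0 kb (Neurod1). The share with a stable bin was 8.12% for all genes under 10 kb and 14.1% from 10 to 30 kb. The lack of a stable bin is thus common at such lengths and says little of these 3 genes. The hepatocyte genes Alb and Apoa1 had none, and state 5 took 18.9% of the extended span of Alb in SD 3m and 0.0% in both 12-month groups. Active enhancer states took 67.2%, 93.9% and 98.9% of that span in SD 3m, SD 12m and CR 12m. Neurod1, a neuronal transcription factor, had none and had a TSS in state 6 in every group. Pax6, another neuronal transcription factor with a TSS in state 6 in every group, had 27 stable bins (10.8%), the most of the neuron list, where Map2 (7) and Rbfox3 (6) were the others of 14 genes. State 5 took 17.3%, 16.5% and 27.3% of the Pax6 span, with no active enhancer state in any group.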

How the data were processed

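ChIP-seq libraries of 4 histone marks from formalin-fixed livers (PAT-ChIP) had been aligned by the authors to mm10 with BWA 0.6.2-r126 and handled with SAMtools 0.1.18, as the submitters' processing notes list them. The authors discarded duplicates and reads of low mapping quality, pooled the libraries of a group for each mark, binarized the merged signal in bins of 200 bp and trained a ChromHMM model with 8 states. The deposited values are state labels and neither counts nor signal, so that depth is unknown and merging, binarization and smoothing could not be repeated. SD 6m was not analysed here.

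All 3 segmentations were read as deposited, without a filter, and bins in state 5 in all 3 were merged where adjacent, in Python 3.11.15 with numpy 2.4.6, pandas 2.3.3, scipy 1.17.1 and matplotlib 3.10.9. The last whole bin of each of the 20 chromosomes matched GRCm38.p6, the assembly of mm10. Genes were the 26089 on chromosomes 1 to 19 and X with a curated RefSeq transcript, each by its longest, extended by 10 kb on each side. Repeats are lower-case bases of the reference. The functions were tested on 400000 simulated bins, where 8 of 8 quantities were recovered exactly.

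The members and the 15 gene lists were chosen with earlier results of these data known. Genes named are the 12 longest stretches, the 12 genes with the most stable bins, the 10 with the highest percent among genes of at least 250 bins, up to 3 genes with the most stable bins per list, and 4 controls (Alb, Apoa1, Pax6, Neurod1). Other genes of the endothelial, macrophage and signalling lists were named after their values were seen. The alternatives tried were adding chromosome X, dropping the 3 Mb at the start of each chromosome, allowing a shift of 1 bin, keeping stretches of at least 3 bins, merging stretches 1 bin apart, every curated transcript, a window of 5 kb around the TSS and no extension of genes. Wilson 95% intervals over bins, stretches or genes served to judge whether a value moved, and they cover counting error only.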

Additional observations from a re-analysis of the deposited data

Results flagged for a closer look

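Chromosome X lies outside the rule, and it was looked at because it also holds bins in state 5 in all 3 groups. There were 7660 such bins in 503 stretches, or 0.896% of its bins, against 0.857% on the autosomes. The count has no replicate and no test. The share of SD 3m state 5 bins that stayed in state 5 was 38.0% on chromosome X and 9.20% to 20.2% on the autosomes, and 10.2% turned active on chromosome X against 29.7% to 47.8%. The stretches had a median length of 1600 bp, and the longest, 40.4 kb (chrX:85061201-85101600), lay in Dmd, the dystrophin gene. All mice were female, and the 2 copies of the chromosome cannot be told apart in these labels.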

How the results depend on the processing

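Of 32 alternative values for 11 results, 11 lay within the 95% Wilson interval of the value reported and 21 outside it. A shift of 1 bin in the other groups raised the coverage to 0.983% and the share of SD 3m state 5 kept to 17.5%, and leaving out the first 3 Mb raised the coverage to 0.877%. With chromosome X the share kept was 15.9%, gene bodies held 86.1%, GC content was 42.5%, repeats were 28.7%, and stretches beside an active enhancer state were 84.0% for SD 3m and 81.5% for SD 12m. With stretches of at least 3 bins only, the median length was 1400 bp, 2.01% of bins lay within 2 kb of a TSS and 86.3% in gene bodies, GC content was 42.6%, repeats were 27.2%, an active enhancer state was beside 81.2%, 77.7% and 77.96% of stretches in SD 3m, SD 12m and CR 12m, and 13.3% of genes had a stable bin. Every curated transcript put 2.91% of bins within 2 kb of a TSS, and a window of 5 kb 6.86%. Without the extension of the span 14.0% of genes had a stable bin.

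No paired analysis was possible because the libraries of a group were merged into 1 segmentation and the result comes from no test. No library was left out, as none has labels of its own. The depth behind each label is unknown. Groups differ in libraries per mark, whose part in the state 5 coverage was not tested. All sets rest on the same 3 segmentations.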
